A study of Mus musculus with 24 samples.

Results

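A set of 10 genes of brown fat and heat production were followed through the whole series: Ucp1, Cidea, Elovl3, Prdm16, Ppargc1a, Dio2, Cox8b, Cox7a1, Cpt1b and Fabp3. They were taken by symbol, through the GENCODE M1 gene models, as 10 of the 37991 Ensembl genes in the table. No measured value served as a selection rule, but the list was chosen with earlier results of these data known. The 24 libraries came from female mice, with 3 PyMT and 3 FVB animals at each of weeks 6, 8, 10 and 12. PyMT mice were F1 females heterozygous for the polyoma middle T antigen, which the MMTV promoter drives mainly in mammary epithelium, and mammary tumors were taken from them. The controls were FVB females of the same age without the transgene, and normal mammary glands were taken from those. Both genotypes share the FVB background and received no other treatment named in the labels. In PyMT mice the weeks stand for hyperplasia (week 6), adenoma or mammary intraepithelial neoplasia (week 8), early carcinoma (week 10) and late carcinoma (week 12). Each value is the RNA level of a whole piece of tissue, so fewer cells of a type and less RNA per cell cannot be told apart.

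Brown and beige adipocytes burn fatty acids to make heat. Noradrenaline acts on their beta-adrenergic receptors and raises cyclic AMP, which activates transcription through CREB and PGC-1alpha, and the uncoupling protein UCP1 then lets protons back into the mitochondrial matrix without making ATP. The mouse mammary gland lies within a subcutaneous fat pad, in which such cells can appear among white adipocytes. Several of the 10 genes are not restricted to fat: Cox8b, Cox7a1, Cpt1b and Fabp3 encode forms that heart and skeletal muscle also use.

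RefSeq promoter windows were at hand for 7 of the 10 genes. The 250 bases before the transcription start are shown for 3 of them as examples. Cox7a1 and Fabp3, which are not shown, followed Ucp1 more closely over the 12 FVB libraries than Dio2 and Cox8b did. Pearson's correlations were 0.93 and 0.92 for the former and 0.84 for each of the latter. Coordinates here are on GRCm38.p6, another build than that of the counts. Ucp1 is read from chr8:83290098-83290347 on the plus strand, Dio2 from chr12:90739039-90739288 on the minus strand and Cox8b from chr7:140900447-140900696 on the minus strand. Capitals mark matches, on either strand, to the cyclic AMP response element TGACGTCA or its part TGACG, the nuclear receptor motif AGGTCA, the E-box CAGCTG or the TATA sequence TATAAA.
Ucp1: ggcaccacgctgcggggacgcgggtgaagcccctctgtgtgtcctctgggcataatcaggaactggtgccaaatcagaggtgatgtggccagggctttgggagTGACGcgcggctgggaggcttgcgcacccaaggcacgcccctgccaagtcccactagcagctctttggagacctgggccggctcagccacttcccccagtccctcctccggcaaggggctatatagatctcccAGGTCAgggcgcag
Dio2: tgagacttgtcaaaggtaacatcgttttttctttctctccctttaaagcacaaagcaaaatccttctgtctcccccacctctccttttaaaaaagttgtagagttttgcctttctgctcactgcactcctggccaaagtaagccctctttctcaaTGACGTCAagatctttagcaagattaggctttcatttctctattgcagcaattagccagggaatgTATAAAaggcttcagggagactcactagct
Cox8b: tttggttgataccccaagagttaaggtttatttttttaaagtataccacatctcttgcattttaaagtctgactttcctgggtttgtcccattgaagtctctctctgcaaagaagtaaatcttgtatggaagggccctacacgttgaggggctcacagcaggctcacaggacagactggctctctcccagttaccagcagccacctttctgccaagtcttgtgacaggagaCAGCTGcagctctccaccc
The whole element TGACGTCA stood in the Dio2 window alone of the 7, against 1.55% of the 32851 windows in the table. Its part TGACG, which TGACGTCA contains, stood in 4 windows (Dio2, Fabp3, Ppargc1a and Ucp1) and in 17.8% of all windows. AGGTCA was found in Ucp1 and in 14.0% of all windows, CAGCTG in Cox8b and in 13.0%, and TATAAA in Dio2 and in 12.4%. The longer TCAAGGTCA, an estrogen-related receptor site, was in 0.387% of windows and in none of the 7. These are matches of letters only.

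On mm9 the genes lie on 8 chromosomes. Ucp1 (ENSMUSG00000031710) is at chr8:85814247-85822355 on the plus strand and Cidea (ENSMUSG00000024526) at chr18:67503218-67527448 on the plus strand. Elovl3 (ENSMUSG00000038754) is at chr19:46206387-46210184 on the plus strand and Prdm16 (ENSMUSG00000039410) at chr4:153690234-154010982 on the minus strand. Ppargc1a (ENSMUSG00000029167) is at chr5:51845488-51958964 and Dio2 (ENSMUSG00000007682) at chr12:91962994-91976878, both on the minus strand. Cox8b (ENSMUSG00000025488) is at chr7:148084842-148086345 on the minus strand and Cox7a1 (ENSMUSG00000074218) at chr7:30969190-30971047 on the plus strand. Cpt1b (ENSMUSG00000078937) is at chr15:89246836-89256294 on the minus strand and Fabp3 (ENSMUSG00000028773) at chr4:129985839-129992707 on the plus strand. All are protein-coding, and the counts cover their exons.

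Total counts ran from 6969375 to 13516601 per library. In 13 libraries (7 FVB and 6 PyMT), genes piled up at a common count of 8 to 25, and in 5 libraries more than 1% of 3799 genes of middle level were at 0 (FVB week 8 replicate 1, FVB week 10 replicate 3, and replicate 2 of PyMT weeks 6, 8 and 10). A low value in such a library is less certain than its count shows. As a check of the tissue labels, 8 adipocyte markers (Adipoq, Plin1, Fabp4, Cidec, Lep, Retn, Lipe and Cfd) summed to 46467 to 129880 normalized counts in FVB and to 1013 to 15460 in PyMT, and 6 luminal epithelial markers to 4173 to 18303 in FVB and 19712 to 37265 in PyMT. Adipocyte genes were thus present in every library. Sums of 12 skeletal muscle markers ran from 137 to 586845 in FVB and from 75.5 to 33114 in PyMT, so several libraries held much muscle RNA and others almost none. A normalized count is the count over the library's DESeq2 size factor.

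In normal FVB mice Ucp1 varied from gland to gland far more than adipocyte markers did, whose sum differed by 2.80-fold between the highest and the lowest library. Ucp1 in FVB ran from 5.47 to 7649 normalized counts with a median of 1253 (n = 12), a ratio of highest to lowest of 1399. Its SD on the log2 scale was 3.39, larger than that of 99.7% of the 14918 genes tested, whose median SD was 0.52. The adipokine gene Adipoq differed by 3.37-fold between the highest and the lowest of the same 12 libraries, and the lipid droplet gene Plin1 by 2.24-fold.

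At week 6, Ucp1 stood at 4400.2, 1038 and 802 normalized counts in the 3 FVB libraries and at 223, 3766 and 185 in the 3 PyMT libraries. At week 8 it stood at 7649, 756 and 6.78 in FVB and at 925, 2.81 and 122 in PyMT. Each genotype thus held libraries with abundant Ucp1 and libraries with little, and the groups overlapped at both weeks. At week 10 the values were 1185, 1607 and 5837 in FVB and 4.45, 14.7 and 67.4 in PyMT. At week 12 they were 4518, 1321 and 5.47 in FVB and 1317, 3.21 and 377 in PyMT. Week 10 was the only one of the 4 weeks at which the Ucp1 levels of the 2 genotypes did not overlap.

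By their medians, the 8 groups ranked in the order FVB week 10 (1607), FVB week 12 (1321), FVB week 6 (1038), FVB week 8 (756), PyMT week 12 (377), PyMT week 6 (223), PyMT week 8 (122) and PyMT week 10 (14.7). No group was clear of the next in this order, since each pair of neighbours overlapped in range. Means and SDs (n = 3) were 2876 ± 2573 in FVB and 28.8 ± 33.8 in PyMT at week 10, and 2804 ± 4213 in FVB and 349.98 ± 502 in PyMT at week 8, so that the SD was close to the mean or above it.

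**Figure D1:**
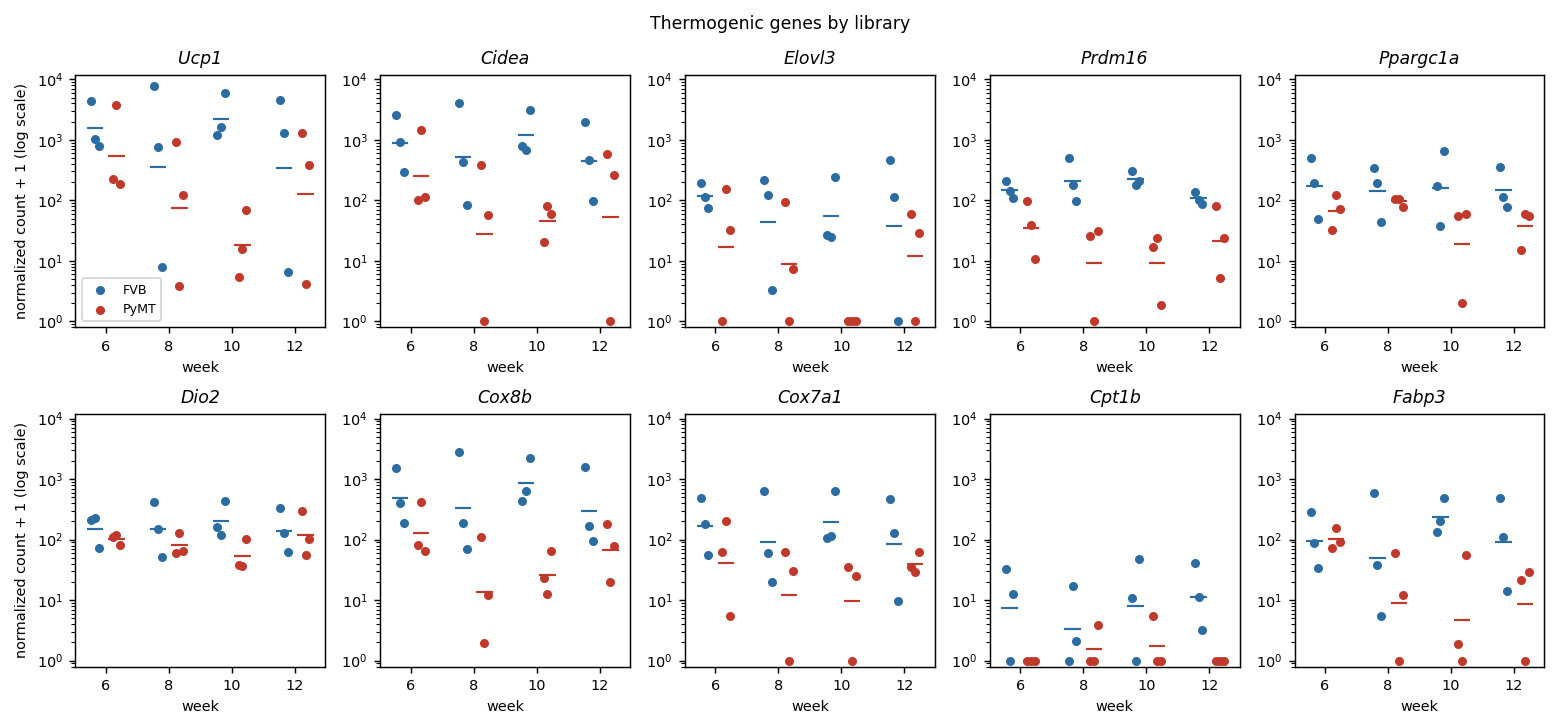
Normalized count plus 1 (log scale) of the 10 genes against week, with 1 point for each library and a bar at the mean of the log values of each group, FVB in blue and PyMT in red. The FVB points of Ucp1 span 1399-fold, and the 3 PyMT points of Prdm16 lie under the 3 FVB points at every week.

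The same libraries stood high for most of the genes. Among the 12 FVB libraries, week 10 replicate 3 was among the 4 highest for 10 of the 10 genes, and week 6 replicate 1, week 8 replicate 1 and week 12 replicate 1 were each among the 4 highest for 9. At the other end, week 8 replicate 3 was among the 2 lowest for 9 genes and week 12 replicate 3 for 8. These last 2 glands had 6 and 5 counts of Ucp1, although neither library showed the pile-up of counts. Their adipocyte genes were not low: Adipoq stood at 5253 in week 8 replicate 3 and at 10704 in week 12 replicate 3, the highest value of all FVB libraries. Lep, the leptin gene of white fat, stood at 5784 and 5136 in them, against 1477 to 2054 in the other 4 FVB libraries of those weeks. At week 10, FVB replicates 1 and 2 had 5128 and 5655 of Lep beside 1185 and 1607 of Ucp1, and the other 4 FVB libraries of weeks 6 and 10 had 927 to 2781 of Lep.

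Cidea, a lipid droplet protein of brown adipocytes, followed Ucp1 closely. It ran from 82.5 to 4001 in FVB with a median of 729, and the 2 FVB libraries with almost no Ucp1 kept 82.5 and 96.2 normalized counts of it. Elovl3, which lengthens fatty acids in cold-exposed brown fat, ran from 0 to 465 in FVB and was at 2.26 and 0 in those 2 libraries. Fabp3, a fatty acid carrier of brown fat and muscle, ran from 4.52 to 585, and Cox7a1, a subunit of cytochrome c oxidase, from 8.75 to 648. Cox8b, another subunit of that enzyme, ran from 70.1 to 2808. Over the 12 FVB libraries 3 genes spanned less. Dio2, which makes active thyroid hormone within the cell, differed by 8.62-fold between its highest and lowest FVB library, the coactivator gene Ppargc1a by 17.5-fold and Prdm16, which directs precursors toward the brown fate, by 5.61-fold. Without the 2 libraries with almost no Ucp1, Ucp1 ran from 756 to 7649, Cidea from 299 to 4001 and Cox7a1 from 55.5 to 648. Ppargc1a then still ran from 37.1 to 648, Dio2 from 70.5 to 438 and Prdm16 from 101 to 491.

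Likeness to Ucp1 was measured as the correlation of log2(normalized count + 1) over the FVB libraries, as a description only. The points share the sequencing depth and the muscle RNA of each library, both of which differ between libraries. Over all 12, Pearson's r was 0.93 for Elovl3, 0.93 for Cox7a1, 0.92 for Cidea, 0.92 for Fabp3, 0.84 for Cox8b, 0.84 for Dio2, 0.65 for Prdm16, 0.65 for Ppargc1a and 0.34 for Cpt1b. Without the 2 libraries with least Ucp1, which stand apart, r over the other 10 was 0.96 for Cox7a1, 0.95 for Cox8b, 0.95 for Cidea, 0.95 for Fabp3, 0.84 for Dio2, 0.70 for Ppargc1a, 0.63 for Elovl3 and 0.53 for Prdm16. The value of Elovl3 over 12 thus rests in part on those 2 libraries. Spearman's rho over the 12 was 0.97 for Fabp3, 0.93 for Cox7a1, 0.92 for Cidea and 0.92 for Cox8b. For Adipoq, r was -0.06 over 12 libraries and 0.64 over 10.

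Outside the 10 genes, the tested genes with the pattern most like that of Ucp1 over the 12 FVB libraries were Mpzl2 (r = 0.96), the fatty acid transporter gene Slc27a2 (0.95), Gm13340 (0.88), the pantothenate kinase gene Pank1 (0.88) and the proton channel gene Otop1 (0.88). Those most like Cox8b were the mitochondrial genes Sucla2 (0.97), Etfdh (0.96) and Uqcrc2 (0.96), with Pank1 (0.96) and Gm13910 (0.96). Gm13340 and Gm13910 are gene models without a known product. Within the 12 PyMT libraries, r with Ucp1 was 0.61 for Slc27a2, 0.68 for Pank1, 0.77 for Otop1 and 0.08 for Mpzl2.

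**Figure D2:**
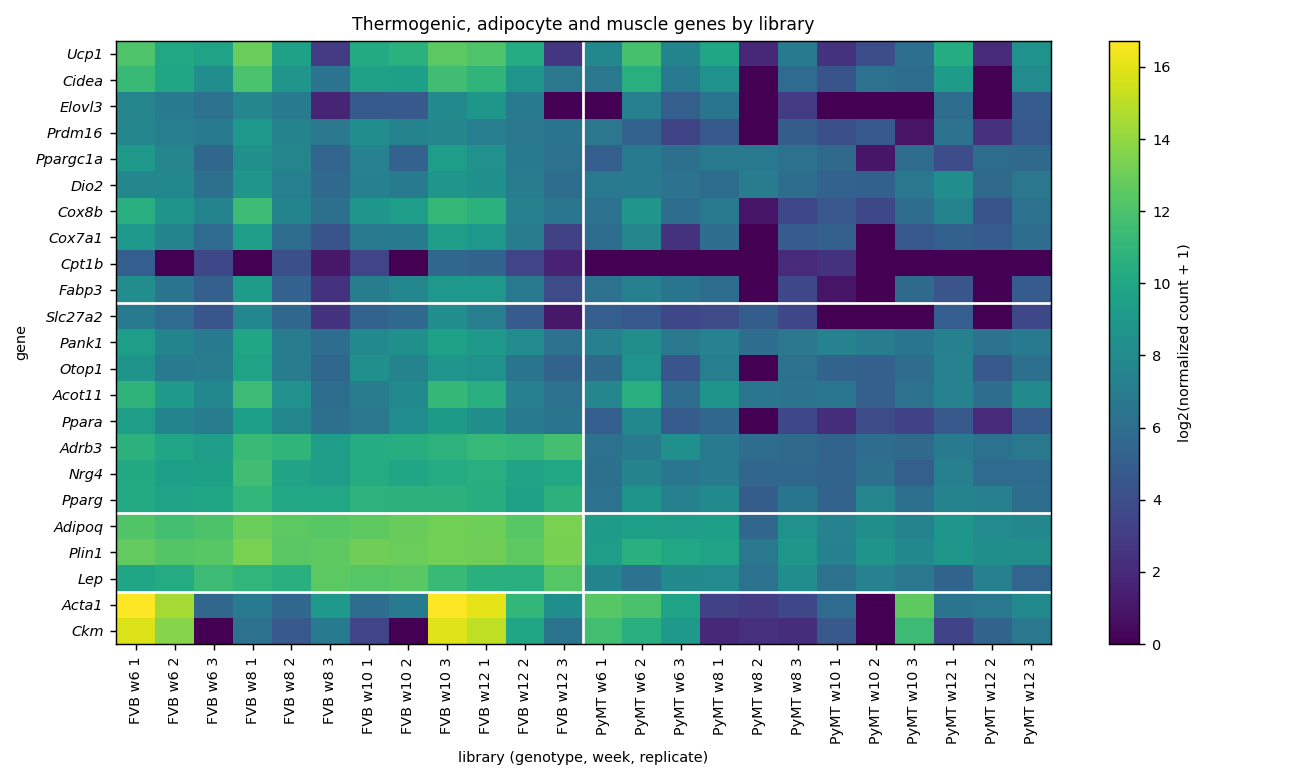
Level, as log2(normalized count + 1), of the 10 genes, of 8 other thermogenic genes and of adipocyte and muscle markers (rows) in the 24 libraries (columns), FVB on the left and PyMT on the right of the white line. The upper rows change from one FVB library to the next, while the FVB columns of Adipoq stay within 3.37-fold.

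Some libraries rich in thermogenic RNA were also rich in muscle RNA. The muscle markers summed to 548346 in FVB week 6 replicate 1, to 586845 in week 10 replicate 3 and to 338120 in week 12 replicate 1, which are 3 of the 4 libraries richest in thermogenic RNA. The fourth, week 8 replicate 1, had the most Ucp1 of all with a muscle sum of 679. In a fit of the 12 FVB libraries on a muscle score and a fat score together (each the mean log2 level of its markers), the slope on the muscle score ranged from 0.11 to 0.20 log2 units per unit for 8 of the 9 tested genes. None of these slopes passed edgeR's test at a Benjamini-Hochberg adjusted p under 0.05, against 4.59% of all genes called in either direction. An unadjusted p under 0.05 was seen for 6 of the 9, and for 2805 of all 14918 tested genes. The nearest to the threshold was Ppargc1a, with 0.18 (SE 0.05, adjusted p = 0.0548), and Prdm16 had -0.01 (SE 0.04, adjusted p = 0.945). The count moved with the library left out and with the tool: it was 5 without FVB week 8 replicate 1, 1 without FVB week 8 replicate 2 or FVB week 12 replicate 3, and 6 with limma voom. The share of all genes called in those fits is not given here, so these counts cannot be set against the 4.59%. Slopes on the fat score were positive for 9 of 9 genes and called for none, against a background of 2.1%. An unadjusted p under 0.05 was seen for 2 of these genes (Cox8b and Fabp3), and for 2426 of all tested genes. In the comparison of PyMT with FVB over the 4 weeks, the same muscle score was also used as a covariate.

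**Figure D3:**
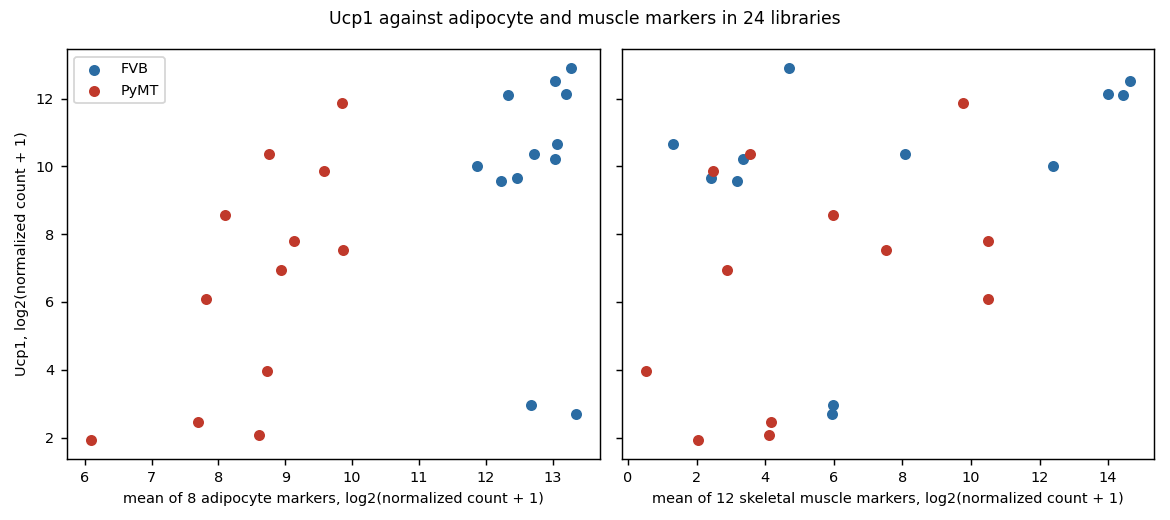
Ucp1 against the mean level of 8 adipocyte markers (left) and of 12 skeletal muscle markers (right), all as log2(normalized count + 1), with 1 point for each of the 24 libraries. Of the 2 lowest FVB points, 1 lies within the range of the other FVB points for adipocyte markers and 1 just above it, and the highest FVB point has little muscle RNA.

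Next, PyMT and FVB were compared at each week, and over the 4 weeks together with week as a factor. A gene was called when edgeR's quasi-likelihood test gave an adjusted p under 0.05 over all 14918 genes and the fold change was above 2. Of the 10 genes, 9 genes passed the filter on low counts (a CPM, the count scaled to the library total, of 1 or more in 12 or more libraries) and Cpt1b did not. In these fits all 9 estimates were negative at each of the 4 weeks, while some estimates that were not called turned positive in other fits. With library size as the only scaling these were Fabp3 at week 6 (0.0383) and Dio2 at week 12 (0.20). With limma voom they were Fabp3 at weeks 6 (0.35) and 8 (0.16), Ucp1 at week 8 (1.41) and Cox7a1 at week 12 (0.0890), and leaving out single libraries turned Ucp1 and Fabp3 at week 6, Fabp3 at week 8, and Cidea and Dio2 at week 12. The medians were -1.25, -2.98, -4.07 and -2.02 log2 units at weeks 6, 8, 10 and 12, where the medians of all tested genes lay between -0.08 and 0.01.

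At week 10, in early carcinoma, 5 of the 9 genes fell, against 9.09% of all tested genes called lower. Ucp1 fell by 6.55 on the log2 scale (SE 1.08, adjusted p = 0.0057). Cidea fell by 4.82 (SE 0.77, adjusted p = 0.00491), from 776, 681 and 3139 normalized counts in FVB to 19.6, 78.6 and 58.0 in PyMT. Cox8b fell by 4.98 (SE 0.85, adjusted p = 0.00656), from 433, 635 and 2203 to 22.2, 11.5 and 63.1. In each of these 3 genes every PyMT library lay under every FVB library.

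Prdm16 fell by 4.07 (SE 0.92, adjusted p = 0.0208) at week 10, from 299, 175 and 209.7 normalized counts to 16.0, 23.1 and 0.853. Elovl3 had no count in any of the 3 PyMT libraries, where the FVB libraries had 25.9, 24.1 and 246 (edgeR's adjusted p = 0.0273). Against a floor of 3 counts per library it was at least 35.3-fold lower in PyMT. That bound holds for counting error only, as PyMT replicate 2 had a pile-up count of 15 and FVB replicate 3 of 19. It rests on FVB week 10 replicate 3, without which it is 8.94-fold. The call was lost without that library or without any 1 of the 3 PyMT libraries. Cox7a1 (-3.80, SE 1.25, adjusted p = 0.0793), Fabp3 (-3.80, SE 1.45, adjusted p = 0.12), Dio2 (-1.94, SE 0.68, adjusted p = 0.0932) and Ppargc1a (-2.84, SE 1.27, adjusted p = 0.176) did not pass. Groups were apart, with PyMT below, for 8 of the 10 genes at this week (all but Ppargc1a and Cpt1b), against 21.6% of all tested genes. Without PyMT week 10 replicate 1 the count of called genes was 3, as Prdm16 and Elovl3 were lost, and Prdm16 was also lost without FVB week 10 replicate 1. The adipocyte markers fell at the same week too, 8 of 8, with a median of -4.85. Their part in these falls was not tested at single weeks.

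None of the 9 genes was called at weeks 6, 8 or 12, where 6.46%, 6.37% and 13% of all genes were called lower. At an unadjusted p under 0.05 in edgeR's test the counts were 0, 2 (Cox8b and Prdm16) and 3 (Ppargc1a, Cox8b and Fabp3). Of all 14918 tested genes, 3986, 4168 and 5960 were under that level at weeks 6, 8 and 12. By DESeq2 1 gene was called at week 8 (Prdm16) and 2 at week 12 (Ppargc1a and Cox7a1). At weeks 6 and 12 the calls depended on single libraries, while at week 8 the count stayed at 0 with 1 library left out at a time. PyMT week 6 replicate 2 was among the 4 highest PyMT libraries for 10 of the 10 genes. For Cpt1b this was only a tie at 0, where 10 of 12 PyMT libraries stood. That library had 3766 normalized counts of Ucp1 and 1436 of Cidea. Its Adipoq stood at 684 beside 587 and 644 in the other 2 libraries of its group. Without it 2 genes, Ucp1 and Cidea, were called at week 6. At week 12 the FVB library with 5.47 of Ucp1 overlapped the PyMT libraries in 7 of the genes, and without it 2 genes were called, Cox7a1 and Fabp3. Without PyMT week 12 replicate 1, which had 1317 of Ucp1, Prdm16 was called.

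**Figure D4:**
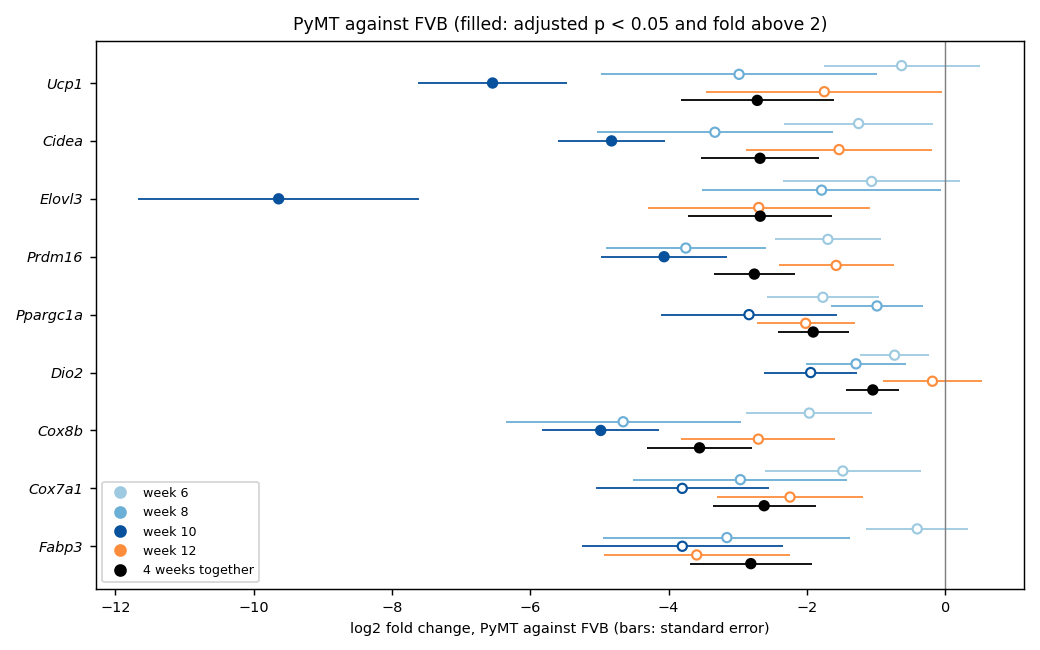
Log2 fold change of PyMT against FVB (horizontal axis, bars show the standard error) for the 9 tested genes at each week and over the 4 weeks, with filled points for called genes. In the fits plotted, estimates lie to the left of 0 for all 9 genes, and filled points are found at week 10 and in the fit of the 4 weeks; the week 10 point of Elovl3 is a fitted value with every PyMT library at 0.

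Of the 10 genes, Prdm16 separated the genotypes most steadily. Its normalized counts were 207, 143 and 110.1 in FVB and 97.0, 37.6 and 9.65 in PyMT at week 6, and 491, 181 and 98.3 in FVB and 24.8, 0 and 29.9985 in PyMT at week 8. At week 12 they were 139, 101 and 87.5 in FVB and 79.2, 4.27 and 23.1 in PyMT. It was the only one of the 10 genes with PyMT below FVB and no overlap at all 4 weeks. At the single weeks 20.4%, 21.7%, 21.6% and 25.2% of tested genes had no overlap with PyMT below. The share of tested genes without overlap at all 4 weeks was not computed.

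Over the 4 weeks together (12 against 12 libraries) 9 of the 9 genes fell, against a background of 17.2% called lower. The largest estimate was that of Cox8b, which fell by 3.55 (SE 0.76, adjusted p = 0.000398), with medians of 416 normalized counts in FVB and 63.6 in PyMT. Fabp3 fell by 2.81 (SE 0.88, adjusted p = 0.00988) and Prdm16 by 2.76 (SE 0.58, adjusted p = 0.00033). Cox8b and Prdm16 were called in each of the 34 alternative fits of this comparison.

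Ucp1 fell by 2.72 (SE 1.10, adjusted p = 0.0432), Cidea fell by 2.68 (SE 0.85, adjusted p = 0.0109) and Elovl3 fell by 2.67 (SE 1.04, adjusted p = 0.0351). The call of Ucp1 was lost in 17 of 34 alternatives, that of Elovl3 in 11 and that of Dio2 in 14. Cox7a1 fell by 2.62 (SE 0.74, adjusted p = 0.00495) and Ppargc1a by 1.91 (SE 0.52, adjusted p = 0.00339). Dio2 fell least, by 1.05 (SE 0.39, adjusted p = 0.0265), with medians of 154 and 90.5. Without FVB week 8 replicate 1 the count was 5 (Cidea, Ppargc1a, Cox8b, Cox7a1 and Prdm16). It was 6, with Ucp1, Elovl3 and Dio2 lost, without PyMT week 8 replicate 3, PyMT week 10 replicate 1 or 2, FVB week 12 replicate 1 or PyMT week 12 replicate 2. With the muscle score as a covariate it was also 5 (Ppargc1a, Cox8b, Cox7a1, Prdm16 and Fabp3).

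Cpt1b, which admits fatty acids to mitochondria in muscle and brown fat, was near the limit of detection. FVB libraries had at most 46.9 normalized counts, with 3 of 12 at 0, and PyMT libraries at most 4.45, with 10 of 12 at 0. All PyMT libraries of weeks 6 and 12 were at 0. Against a floor of 3 counts per library, Cpt1b was at least 5.70-fold lower at week 6 and 5.81-fold lower at week 12. These bounds hold for counting error only. The PyMT libraries of week 6 had pile-up counts of 14, 25 and 13, and PyMT week 12 replicate 1 had 12. A 0 in such a library can stand for more than 3 counts. Both bounds rest on replicate 1 of the FVB group, without which they are 2.29-fold and 2.03-fold, and at week 6 an FVB library was at 0 too. When a CPM of 1 in only 3 libraries was asked for, it was called over the 4 weeks (edgeR's adjusted p = 0.00516) and at no single week.

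Per kilobase of exon, the order of the FVB medians was Cox8b (1149 normalized counts per kb), Ucp1 (762), Cidea (626), Cox7a1 (331), Fabp3 (148), Elovl3 (60.2), Ppargc1a (27.7), Dio2 (26.6), Prdm16 (17.1) and Cpt1b (2.99). In PyMT the medians per kilobase were 176 for Cox8b, 93.3 for Ucp1, 86.0 for Cox7a1, 77.0 for Cidea, 29.3 for Fabp3, 15.6 for Dio2, 8.79 for Ppargc1a, 2.48 for Prdm16, 1.72 for Elovl3 and 0 for Cpt1b. Ranges overlapped between neighbours in both orders. For scale, Adipoq stood at 4319 per kilobase in FVB and 249.7 in PyMT.

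Because adipocyte RNA as a whole fell in PyMT libraries (8 of 8 markers called over the 4 weeks, median -3.95), the genes were also set against the 8 adipocyte markers in place of the library size. On that scale 3 of the 9 were called higher in PyMT, where 94.8% of all tested genes were called higher and the median of all genes was 4.38. Dio2 was higher by 3.51 log2 units (SE 0.58, adjusted p = 2.67e-07), Ppargc1a by 2.55 (SE 0.65, adjusted p = 0.000331) and Cox7a1 by 1.45 (SE 0.70, adjusted p = 0.0453). For Ucp1 the difference was 1.04 (95% interval -0.53 to 2.60) and for Cox8b 0.45 (-0.72 to 1.61), neither of which passed. The remaining 4 lay between 0.78 and 1.32 and did not pass either. The call of Cox7a1 was lost in 15 of 24 fits with 1 library left out, and with a CPM of 1 in 3 libraries as the filter. The count was 5 without FVB week 8 replicate 1, with Cidea and Fabp3 added, and 4 without PyMT week 8 replicate 2 (Prdm16 added) or FVB week 10 replicate 3 (Cidea added).

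No change with time passed the test. None of the 9 genes was called for a difference between weeks in FVB, between weeks in PyMT, or in the PyMT against FVB difference across weeks, and none had an unadjusted p under 0.05 in these F tests of edgeR. Among all genes 1 (0.0067%), 0 (0%) and 0 (0%) were called, with 635, 597 and 494 at an unadjusted p under 0.05. The larger fall at week 10 is therefore not shown to differ from that of the other weeks.

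Of a list of 30 other thermogenic genes, 23 passed the filter, and over the 4 weeks 16 fell and 2 rose, against 17.2% and 8.51% of all genes. The median of the 23 was -1.71, beside -0.03 for all tested genes. By week, 4, 5, 12 and 7 fell, where 6.46%, 6.37%, 9.09% and 13% of all genes were called lower. At the same weeks 2, 0, 1 and 1 rose, where 3.58%, 3.57%, 4.83% and 7.75% of all genes were called higher. Zic1, Lhx8, Tbx1, Tmem26, Tnfrsf9, Bmp8b and Fgf21 did not pass the filter. Zic1, a marker of classical brown fat precursors, was at 0 in 10 of 12 FVB libraries, and Lhx8 at 0 in all 24. Tmem26 and Tbx1, known as beige markers, had FVB medians of 24.7 and 3.90 normalized counts. Those of Tnfrsf9, Bmp8b and Fgf21 were 0.771, 1.01 and 0, and Tnfrsf9 was at 0 in 6 of 12 FVB libraries.

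Among receptors and secreted factors, Adrb3, the beta-3 adrenergic receptor of adipocytes, fell by 4.15 (SE 0.34), and Nrg4, a factor released by brown fat, by 3.89 (SE 0.31). Adrb3 spread less than Ucp1 in FVB, from 653 to 3535. Its highest value was in week 12 replicate 3, the library with least Ucp1 of its genotype. In week 8 replicate 3, the other FVB library with almost no Ucp1, Adrb3 stood at 661. Its Pearson's r with Ucp1 was 0.16 over the 12 FVB libraries and 0.63 over the 10 without those 2. Among transcription factors and cofactors, Pparg fell by 3.27 (SE 0.35), Cited1 by 4.07 (SE 0.51), Ebf2 by 3.32 (SE 0.48), Irf4 by 2.78 (SE 0.49), Ppara by 3.49 (SE 0.63) and Ppargc1b by 1.71 (SE 0.34). Esrrg, an estrogen-related receptor, went the other way and rose by 1.78 (SE 0.25), from a median of 94.9 in FVB to 300.5 in PyMT.

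Among enzymes and mitochondrial proteins, Gyk, a glycerol kinase gene, rose by 1.23 (SE 0.27), while Acot2 fell by 1.00 (SE 0.23) and Letmd1 by 1.28 (SE 0.31). Adjusted p ran from 2.97e-10 to 0.00118 in edgeR's test for these 12 genes, which are those with the lowest adjusted p of the list. Adrb3, Nrg4, Pparg, Cited1, Ebf2 and Irf4 showed no overlap, with PyMT below, at each of the 4 weeks, as Prdm16 did. At single weeks this held for 20.4%, 21.7%, 21.6% and 25.2% of all tested genes, and the share at all 4 weeks was not computed.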

How the data were processed

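Directional libraries of ribosomal RNA-depleted total RNA were sequenced from 24 mice. The values deposited by the authors are raw counts for each Ensembl gene, made with GSNAP (alignment, mm9) and HTSeq (counting). Symbols and coordinates are from GENCODE M1, promoter windows from RefSeq on GRCm38.p6. The 10 genes and all lists were chosen with earlier results of these data known. Analysis used R 4.3.3, edgeR 4.0.16, DESeq2 1.42.0, limma 3.58.1, Python 3.11.15 and pandas 2.3.3. The 14918 genes that reached a CPM of 1 in 12 or more libraries were tested by edgeR's quasi-likelihood test after TMM scaling, with Benjamini-Hochberg adjustment. Calls needed an adjusted p under 0.05 together with a change of over 2-fold, except that slopes on marker scores and F tests across weeks needed the adjusted p alone. Levels are counts over DESeq2 size factors, with 1 added before log2. Fits were also run on simulated counts without the pile-up, which cannot speak to its effect on the calls. Floors of 3 counts cover counting error only.

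Named genes are the 10 members, up to 12 called genes of the other thermogenic list by adjusted p with those failing the filter, the 5 genes most like Ucp1 and Cox8b each, and markers where a list is read. Lep, Adipoq and Plin1 are markers. Single libraries are named where leaving them out moved a count by over 1.5 times, and some also where it moved less. Libraries of a group are from separate mice. The sources used here do not give which mammary gland each library came from. No 2 libraries of a group agreed within sampling noise (chi-square per gene of 19.6 to 223 over 24 pairs). Alternatives were other scalings, tools, filters, a replicate block, division by the pile-up count, a fit of all 24 samples, and each library left out.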

Additional observations from a re-analysis of the deposited data

How the results depend on the processing

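Alternative settings moved the number of the 9 genes called at single weeks more than the direction of the estimates. Of 1116 recomputed values of single genes, 987 kept their direction and their side of the threshold, 71 lost a call, 44 gained one and 14 changed sign. The share of all genes called in each alternative is not given here. The counts from alternatives, above and below, therefore cannot be set against the shares of the main fits. At week 8 (0 called), DESeq2, division by the pile-up count and a replicate block each gave 1, and no filter or a fit of all 24 samples gave 2. At week 10 (5 called), DESeq2 gave 9 and the block 8. At week 12 (0 called), limma voom and the block gave 1, DESeq2 and division by the pile-up count 2, and no filter 3. Over the 4 weeks (9 called), voom gave 3, and the muscle score as a covariate, added after seeing the data, gave 5. Without the 5 libraries with many genes at 0, also added later, the count was 6, library size alone gave 6 and the block 7. Relative to adipocyte markers (3 called), no filter gave 5 and division by the pile-up count 6. For the slope on the muscle score (0 called), DESeq2, a CPM of 1 in 3 samples and no filter gave 1, division by the pile-up count 2 and voom 6. With 1 library left out at a time the counts ran from 0 to 2 at week 6, 3 to 5 at week 10, 0 to 2 at week 12, 5 to 9 over the 4 weeks, 2 to 5 relative to adipocyte markers and 0 to 5 for the muscle slope, and stayed at 0 at week 8, for the tests across weeks and for the fat slope. For the muscle slope the count was 1 without FVB week 8 replicate 2 or without FVB week 12 replicate 3.

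Signs turned for uncalled genes. Fabp3 at week 6 was 0.0383 with library size alone, 0.35 with voom, 0.13 with the block and ran from -0.79 to 0.81 with 1 library left out. Voom gave 1.41 for Ucp1 and 0.16 for Fabp3 at week 8, and 0.0890 for Cox7a1 at week 12. Dio2 at week 12 was 0.20 with library size alone. Leaving out 1 library gave values from -3.28 to 0.61 for Ucp1 at week 6, from -5.07 to 0.19 for Fabp3 at week 8, and from -1.11 to 0.67 for Dio2 and from -2.57 to 0.0362 for Cidea at week 12. The cause was not tested. Library size alone moved the median of all genes from -0.03 to 0.26 over the 4 weeks. Replicate numbers were not shown to pair the mice: correlations of same-numbered PyMT and FVB deviations ran from -0.03 to 0.18 over 12 pairs, 4 of them over 0.1. Of the 12 PyMT libraries, 6 had no count of Elovl3 and 10 none of Cpt1b, so lower levels of these were not detectable at this depth.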
